A study of Homo sapiens with 12 samples.

Results

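The 8 metallothionein genes MT1A, MT1E, MT1F, MT1G, MT1H, MT1M, MT1X and MT2A were followed through the 4 groups of an RNA sequencing study of liver cancer cell lines. They were taken by symbol from a table of 60664 Ensembl gene identifiers, and all 8 were found. The study measured 12 samples of hepatoma cells, from the line Huh-7 or the line MHCC-97H, transfected either with si-NC, the control siRNA, or with si-CENPU, a small interfering RNA against the centromere protein gene CENPU, with 3 samples in each of the 4 groups. All samples grew in DMEM with fetal bovine serum and antibiotics. The labels give the si-NC cells the genotype WT. The time between transfection and harvest, the number of siRNA sequences used, and whether the 3 samples of a group were separate cultures were not given in the sources used here. The p-values therefore reflect the spread among these particular samples, part or all of which may be technical. Each line stands for 1 tumour, and a difference between the lines is a difference between these 2 cultures.

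Metallothioneins are very small proteins in which a large part of the residues are cysteines, whose thiol groups hold zinc and copper and also toxic metals such as cadmium. They buffer free zinc in the cell and pass it on to other proteins, and the liver is one of the organs in which they are most abundant. The transcription factor MTF1 senses zinc and activates the genes through metal response elements in their promoters, while glucocorticoids and inflammatory signals also raise them. Most human family members lie in a cluster on the long arm of chromosome 16. MT2A is the member found in most tissues, and the MT1 genes are a primate-expanded group of close copies.

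Values are in TPM (transcripts scaled to a fixed total per library), which are adjusted for transcript length but keep no sequencing depth, so the depth behind each value is unknown. Library column sums ran from 998416 to 999065 TPM. CENPU itself was low, ranging over 0.53 to 0.84 TPM in the control and 0.11 to 0.45 TPM in the knockdown libraries of Huh-7, and over 0.83 to 1.17 and 0.22 to 0.45 TPM in those of MHCC-97H, so every si-CENPU library lay below every si-NC library of its line. The 7 hepatocyte markers looked up summed to between 6634 and 7556 TPM in the Huh-7 libraries but to only 0.31 to 1.27 TPM in the MHCC-97H libraries, so the labelled liver origin was not reflected in hepatocyte transcripts of MHCC-97H. Endothelial markers summed to at most 0.68 TPM and fibroblast or stellate markers to at most 4.19 TPM in any library. The 3 immune markers summed to 47.06 to 71.92 TPM in Huh-7 and 15.60 to 19.06 TPM in MHCC-97H. CD68, a lysosomal gene that is also made outside macrophages, had 35.67 to 46.19 TPM in Huh-7 and 15.57 to 19.06 TPM in MHCC-97H, and LYZ 11.39 to 25.73 and 0 to 0.03 TPM. The 4 biliary markers summed to 191 to 229 TPM in Huh-7, where KRT19 was the main one (180.77 to 212.46 TPM), and to 511 to 595 TPM in MHCC-97H, where KRT7 was (510.20 to 593.58 TPM). KRT7 was at most 0.44 TPM in Huh-7, and KRT19, EPCAM and SOX9 were at most 2.07 TPM in MHCC-97H. Mitochondrially encoded transcripts took 1.56% to 3.50% of all TPM in Huh-7 and 4.41% to 6.30% in MHCC-97H, and the part of either difference in the results below was not tested. Huh-7 si-NC replicate 1 was unlike the other 5 libraries of its line: it held the lowest value of the 6 for 49.9% of the 9241 genes compared and listed 18639 identifiers above 0, against 19996 to 20900 in the others. In MHCC-97H, si-CENPU replicate 3 held the lowest value for 39.8% of 9852 genes and si-NC replicate 1 the highest for 39.4%. Knockdown differences of the members are given with and without these libraries.

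The coding sequences show how alike these genes are, which bears on how reads can be shared out among them. For each gene the shortest complete GENCODE release 29 model with 3 coding exons was taken, and other models of the gene were not compared. In the models so chosen each of the 8 has 183 coding bases before the stop codon, that is 61 codons, of which 20 encode cysteine. Identity between pairs of coding sequences ran from 88.5% to 95.1%. The closest pair was MT1G, on the minus strand with its coding part spanning chr16:56666882-56667993, and MT2A, on the plus strand at chr16:56608656-56609351 (GRCh38). Their coding sequences are printed 5′ to 3′, with the 9 bases that differ between them in capitals.
MT1G: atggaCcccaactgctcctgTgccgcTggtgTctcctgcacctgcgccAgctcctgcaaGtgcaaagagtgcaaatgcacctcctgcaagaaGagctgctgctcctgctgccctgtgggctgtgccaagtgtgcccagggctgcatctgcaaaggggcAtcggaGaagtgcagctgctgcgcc
MT2A: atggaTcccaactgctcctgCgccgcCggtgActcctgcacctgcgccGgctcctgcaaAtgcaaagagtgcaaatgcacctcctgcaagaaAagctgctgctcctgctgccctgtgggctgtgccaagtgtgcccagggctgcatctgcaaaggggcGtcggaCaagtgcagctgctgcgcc
The other 174 of 183 bases are the same. The whole transcripts of these models were compared as well. When each transcript was cut into all runs of 50 bases, 4.88% of the runs of MT2A occurred in a transcript of another gene, as did 3.59% for MT1F, 5.34% for MT1E, 5.76% for MT1A, 7.05% for MT1M, 20.2% for MT1G and 20.4% for MT1H. MT1X had the highest share, 45.1%. Shared runs that occurred in another of the 8 members were 71 of 357 for MT1G, 59 of 401 for MT1X and 11 of 348 for MT1H. The other shared runs occurred only in genes or pseudogenes outside the 8. The levels of MT1X, MT1G and MT1H are therefore uncertain where reads from those runs were divided between copies, and how such reads were counted was not stated.

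The promoters of MT2A, MT1X and MT1H are shown because these were the 3 members matched in the RefSeq promoter table (GRCh38.p14). MT2A was higher in MHCC-97H, MT1X lower there and MT1H near 0 in both lines, as described below. None of the 3 has the pattern of MT1F, MT1M, MT1G and MT1A, which were expressed in Huh-7 and at or near 0 in MHCC-97H. Each sequence holds the 250 bases before the RefSeq transcription start on the plus strand, at chr16:56608334-56608583 for MT2A, chr16:56682220-56682469 for MT1X and chr16:56669564-56669813 for MT1H. The GENCODE gene spans given below start further upstream for MT2A and MT1X. The MT2A window therefore lies wholly, and the MT1X window partly, inside the gene span. Capitals mark matches to the core of the metal response element, TGCACNC or TGCGCNC, on either strand.
MT2A: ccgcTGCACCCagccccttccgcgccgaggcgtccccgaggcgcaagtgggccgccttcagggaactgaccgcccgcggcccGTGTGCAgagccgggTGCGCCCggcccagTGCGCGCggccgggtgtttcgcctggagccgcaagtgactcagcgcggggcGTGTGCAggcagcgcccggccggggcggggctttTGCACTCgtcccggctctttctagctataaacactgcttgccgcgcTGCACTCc
MT1X: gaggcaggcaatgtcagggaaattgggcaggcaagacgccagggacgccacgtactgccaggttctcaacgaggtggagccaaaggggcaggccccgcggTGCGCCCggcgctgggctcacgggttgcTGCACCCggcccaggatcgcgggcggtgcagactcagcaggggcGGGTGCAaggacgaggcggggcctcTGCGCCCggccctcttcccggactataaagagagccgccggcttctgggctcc
MT1H: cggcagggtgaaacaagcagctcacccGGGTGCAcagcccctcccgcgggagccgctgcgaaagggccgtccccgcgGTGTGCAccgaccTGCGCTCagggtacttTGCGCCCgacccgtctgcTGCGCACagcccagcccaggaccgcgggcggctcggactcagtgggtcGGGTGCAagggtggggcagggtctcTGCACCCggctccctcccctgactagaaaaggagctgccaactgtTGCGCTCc
MT2A held 7 such matches, MT1X 4 and MT1H 8, and no match overlapped another. At least 1 match was present in 24.8% of 35116 promoters of the same length, at least 4 in 0.370%, at least 7 in 0.0313% and at least 8 in 0.0171%. The sequence TATAAA occurred in the MT2A and MT1X windows and was not found in that of MT1H. Among these 3 the number of matches did not follow the level: the window with the most matches belonged to the gene with the lowest transcript level of the 3. Outside the 8 members, the windows of the family genes MT1B and MT4 were also scanned and held 3 matches each. MT1B averaged 17.6 TPM in Huh-7 and 0.16 TPM in MHCC-97H, and MT4 was listed at 0 in all 12 libraries. A match is a run of letters, and nothing in these data shows whether MTF1 was bound there.

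MT2A, the most abundant member in both lines, was higher in MHCC-97H. In bulk RNA such as this, a change in every cell and a change in the number of expressing cells cannot be told apart. The gene (ENSG00000125148) lies at chr16:56608199-56609497 on the plus strand. In Huh-7 its TPM was 1360.77, 1209.80 and 1064.07 in the si-NC libraries and 1105.43, 1248.09 and 1107.58 in the si-CENPU libraries. In MHCC-97H the si-NC libraries had 2413.02, 2478.71 and 2456.83 and the si-CENPU libraries 2433.04, 1916.94 and 2275.81. All 6 MHCC-97H values lay above all 6 Huh-7 values, and within each line the siRNA groups overlapped. Between the si-NC groups the mean rose from 1212 ± 148 to 2450 ± 33.4 TPM (SD, n = 3 each), a ratio of 2.02.

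MT1E and MT1X were also expressed in both lines, but lower in MHCC-97H. MT1E (ENSG00000169715, chr16:56625475-56627112, plus strand) had 919.27, 769.93 and 750.13 TPM in the Huh-7 libraries given si-NC, and those given si-CENPU had 779.89, 860.88 and 753.98 TPM. In MHCC-97H it had 478.12, 565.02 and 520.04 TPM in libraries given si-NC, and those given si-CENPU had 503.91, 417.98 and 508.14 TPM. The lines did not overlap, and the mean with si-NC was 35.9% lower in MHCC-97H (813 ± 92.5 against 521 ± 43.5 TPM, SD, n = 3 each). MT1X (ENSG00000187193, chr16:56682424-56684196, plus strand), at the far end of the cluster, had 840.90, 626.88 and 525.77 TPM in the Huh-7 libraries given si-NC, and those given si-CENPU had 574.37, 630.84 and 554.14 TPM. In MHCC-97H it had 191.16, 213.89 and 216.73 TPM in libraries given si-NC, and those given si-CENPU had 208.97, 140.52 and 207.88 TPM. Again the lines did not overlap, and the mean with si-NC was 68.8% lower in MHCC-97H (665 ± 161 against 207 ± 14.0 TPM, SD, n = 3 each).

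MT1F and MT1M were among the abundant transcripts of Huh-7 and were listed at 0 in every MHCC-97H library. MT1F (ENSG00000198417, chr16:56657694-56660698, plus strand) had 1070.96, 894.78 and 809.33 TPM in the Huh-7 libraries given si-NC, and those given si-CENPU had 841.07, 878.26 and 803.04 TPM. MT1M (ENSG00000205364, chr16:56632233-56633986, plus strand) had 457.57, 381.23 and 318.63 TPM in the Huh-7 libraries given si-NC, and those given si-CENPU had 378.21, 348.15 and 324.74 TPM. No fold is given for either, since the other line is listed at 0. An exact 0 can be a failed estimate in such a table, and an abundant gene of one line listed at 0 throughout the other was rare: of 374 genes with at least 300 TPM in all 6 Huh-7 libraries, 6 (1.60%) were at 0 in all 6 MHCC-97H libraries. Beside MT1F and MT1M these were ST6GALNAC1, a sialyltransferase, the antisense gene MYLK-AS2, the histone gene H4C13 and the 7SK RNA gene. The 7SK RNA is a small nuclear RNA that human cells in general make. Whether any of these zeros, those of MT1F and MT1M included, is a failed estimate was not tested. In the opposite direction, 0 of 363 genes with at least 300 TPM in all 6 MHCC-97H libraries were at 0 in all Huh-7 libraries.

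MT1G and MT1A followed the same pattern at lower levels. MT1G (ENSG00000125144, chr16:56666731-56668065), the only member on the minus strand, had 175.03, 131.78 and 115.64 TPM in the Huh-7 libraries given si-NC, and those given si-CENPU had 125.44, 150.53 and 137.87 TPM. In MHCC-97H it was listed at 0 in 5 libraries and at 0.21 TPM in si-CENPU replicate 3. MT1A (ENSG00000205362, chr16:56638666-56640087, plus strand) had 36.17, 37.02 and 42.56 TPM in the Huh-7 libraries given si-NC, and those given si-CENPU had 44.28, 49.45 and 44.76 TPM. It was listed at 0 in 5 MHCC-97H libraries and at 0.46 TPM in the same si-CENPU replicate 3. Both genes were thus near or at 0 in MHCC-97H whichever siRNA was used.

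MT1H (ENSG00000205358, chr16:56669814-56671129, plus strand) was close to 0 in both lines. It had 0.71, 0.36 and 0.97 TPM in the Huh-7 si-NC libraries, 0.43, 1.21 and 0 TPM in the si-CENPU libraries, and 0 in all 6 MHCC-97H libraries. Its mean over the 12 samples, 0.307 TPM, was under the limit of 1 TPM used for testing, so 7 of the 8 members entered the model. Exact two-sided permutation tests of log2(TPM + 1), whose smallest possible p with 3 against 3 is 0.1, gave p = 0.1 between the lines with si-NC, p = 0.4 with si-CENPU, and p = 0.7 for the knockdown in Huh-7.

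**Figure D1:**
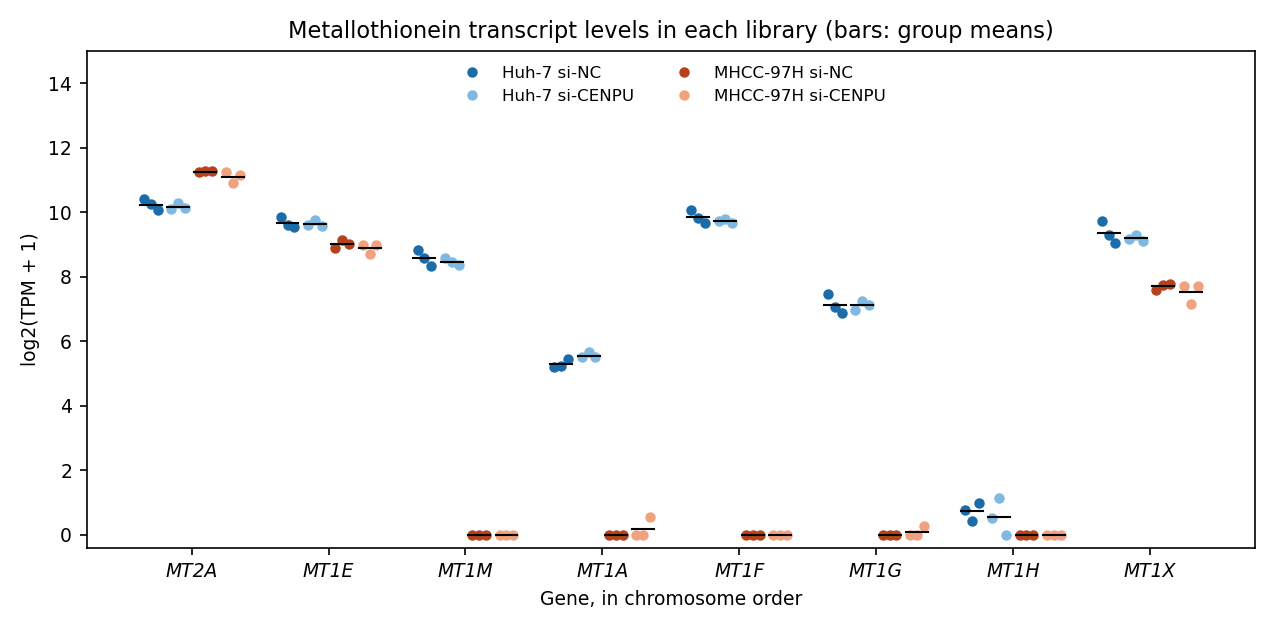
Transcript level of the 8 metallothionein genes in each of the 12 libraries, as log2(TPM + 1), with bars at the group means of 3 libraries. MT2A is the only gene whose MHCC-97H points all lie above the Huh-7 points, MT1E and MT1X lie lower in MHCC-97H, and MT1M, MT1A, MT1F, MT1G and MT1H sit at or near 0 there.

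The order of the members by TPM was the same in all 6 Huh-7 libraries for the 7 genes above 1 TPM. Means over the 6 libraries fell from 1183 TPM for MT2A through 883 for MT1F, 806 for MT1E, 625 for MT1X, 368 for MT1M and 139 for MT1G to 42.4 for MT1A. Across libraries the TPM ranges of neighbours overlapped between MT2A and MT1F, between MT1F and MT1E, and between MT1E and MT1X, and from MT1X downwards no neighbours overlapped. As a share of the family's TPM within each library, none of the first 4 overlapped: MT2A took 28.0% to 29.9%, MT1F 21.1% to 22.3%, MT1E 18.9% to 20.7% and MT1X 14.5% to 17.3%. In MHCC-97H the order MT2A, MT1E, MT1X, with means of 2329, 499 and 197 TPM, held in all 6 libraries and no ranges overlapped. MT1F, second in Huh-7, had no reported level there.

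In the model, the difference between the lines was tested with limma on log2(TPM + 1) across 11088 genes, and genes with a Benjamini-Hochberg adjusted p below 0.05 were called. With si-NC, 73.0% of all tested genes were called between the lines, and with si-CENPU 70.1%, so a call between the lines is the usual outcome for a gene here. All 7 tested members were called in both comparisons. MT2A was called higher in MHCC-97H, as were 50.1% of all genes with si-NC and 46.2% with si-CENPU, and the other 6 were called lower, as were 22.9% and 23.9% of all genes. The values of all 7 members did not overlap between the lines, which held for 73.0% of all genes with si-NC and 74.7% with si-CENPU. MT1F, MT1M, MT1G and MT1A passed the limit on low values only through Huh-7 and so had to differ, and their calls support nothing further. Among genes averaging at least 1 TPM in each line, 67.0% were called with si-NC and 63.6% with si-CENPU, and the 3 members in that set, MT2A, MT1E and MT1X, were called in both.

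MT2A was higher in MHCC-97H by 1.02 on the log2(TPM + 1) scale with si-NC (SE 0.105, limma adjusted p = 4.29e-06) and by 0.93 with si-CENPU (limma adjusted p = 9.64e-06). MT1E fell by 0.64 with si-NC (limma adjusted p = 2.39e-04) and by 0.75 with si-CENPU (limma adjusted p = 7.31e-05). MT1X fell by 1.65 with si-NC (limma adjusted p = 7.11e-06) and by 1.67 with si-CENPU (limma adjusted p = 6.42e-06). The 3 values differ in direction and size although the genes lie within 1 cluster. All tested genes had a median difference between the lines of 0.49 with si-NC and 0.40 with si-CENPU, in the direction of MHCC-97H, and 68.6% and 65.9% of the called genes were higher there. With trimmed-mean scaling of the libraries that median was 0.043 and 0.027 and the share of called genes that were higher was 50.8% and 49.97%, and with quantile normalization the shares were 55.2% and 54.6%. The call of MT2A rests on this choice: with trimmed-mean scaling it was higher by 0.43 with si-NC (limma adjusted p = 0.0841) and 0.44 with si-CENPU (limma adjusted p = 0.0801), both past the median of all genes but not called. MT1E and MT1X stayed lower and called under each scaling tried. Leaving out each library in turn, Huh-7 si-NC replicate 1 included, kept the si-NC difference between 0.93 and 1.11 for MT2A, between -0.70 and -0.55 for MT1E and between -1.81 and -1.47 for MT1X.

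The difference between the lines also showed along the chromosome. In Huh-7 other family genes and pseudogenes lay among the expressed members along the cluster. Of these only MT1L averaged above an expressed member, at 72.2 TPM beside 42.4 TPM for MT1A. Of those outside the 8, MT1L, a pseudogene next to MT2A, had 62.41 to 81.91 TPM in Huh-7 and was listed at 0 in all 6 MHCC-97H libraries. MT1B, a little-expressed coding member, had 12.80 to 25.13 TPM against 0 to 0.72 TPM, and the pseudogene MT1JP had 11.45 to 22.18 TPM against 0.15 to 1.01 TPM. The pseudogene MT1DP ranged from 1.43 to 24.48 TPM in Huh-7, the highest value being in si-NC replicate 1, and from 0 to 0.83 TPM in MHCC-97H. MT1P1, a pseudogene outside the cluster on chromosome 9, reached 5.71 TPM in Huh-7 si-CENPU replicate 3. MT3, the member known from brain, and MT4, known from stratified epithelium, were listed at 0 in all 12 libraries. Between the first and the last expressed gene of MHCC-97H, MT2A and MT1X, only MT1E exceeded 1.01 TPM in any library.

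**Figure D2:**
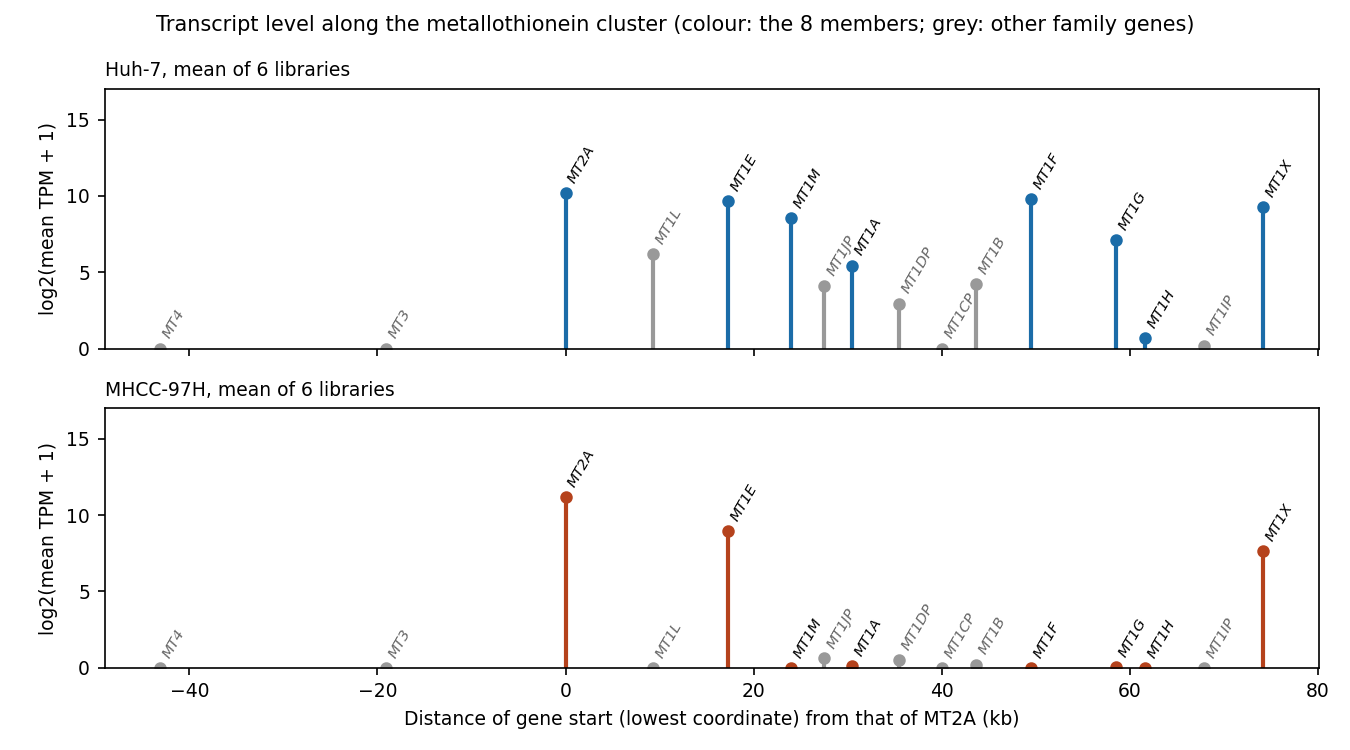
Mean transcript level over the 6 libraries of each line, as log2(mean TPM + 1), against the distance in kilobases of each gene's lowest coordinate from that of MT2A; colour marks the 8 members and grey the other family genes. In MHCC-97H tall stems remain at MT2A, MT1E and MT1X, and the genes between MT1E and MT1X are at or near 0.

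Most tested genes on either side of the cluster were higher in MHCC-97H. Of 9 neighbouring genes listed, 7 passed the limit, and 6 were called higher and 0 lower in MHCC-97H with si-NC, with a median difference of 1.34 beside 0.49 for all tested genes (5 higher and 0 lower with trimmed-mean scaling). NUDT21, a subunit of the cleavage factor that sets messenger 3′ ends, rose from 3.31 ± 0.994 TPM in Huh-7 to 22.2 ± 1.59 TPM in MHCC-97H (SD, n = 3 each). GNAO1, a G protein subunit, went from 0.0467 ± 0.0321 to 2.95 ± 0.221 TPM. With si-CENPU 6 neighbours were called higher and 1 lower. The gene called lower was CETP, the cholesteryl ester transfer protein, which differed by -3.04 with si-CENPU (limma adjusted p = 0.00102) and by -0.91 with si-NC (limma adjusted p = 0.203). CETP had 0, 0 and 6.15 TPM in the Huh-7 si-NC libraries, 12.47, 5.23 and 6.70 TPM in the si-CENPU libraries of that line, and at most 0.17 TPM in MHCC-97H.

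Summed over the 8 genes, metallothionein transcripts came to 4180 ± 627 TPM in the si-NC and 3914 ± 228 TPM in the si-CENPU group of Huh-7, and to 3178 ± 88.7 and 2871 ± 351 TPM in those of MHCC-97H (SD, n = 3 each). That was 0.419%, 0.392%, 0.318% and 0.287% of all TPM in the same order of groups. The make-up of the sum differed between the lines. MT2A made up 28.0% to 29.9% of the family's TPM in the 6 Huh-7 libraries and 76.1% to 78.3% in the 6 MHCC-97H libraries. MT1E held 19.5% of the sum in Huh-7 and 16.4% in MHCC-97H with si-NC, and MT1X 15.8% and 6.52%. MT1F held 22.1%, MT1M 9.20%, MT1G 3.35% and MT1A 0.944% of the sum in Huh-7 with si-NC. With si-CENPU the make-up was close to these values, with MT2A at 29.5% in Huh-7 and 76.9% in MHCC-97H. No test was made on the sum or the shares, and the sum depends on the scaling of the libraries. Without Huh-7 si-NC replicate 1 the si-NC sum was 3839 TPM, below the 3914 TPM with si-CENPU.

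**Figure D3:**
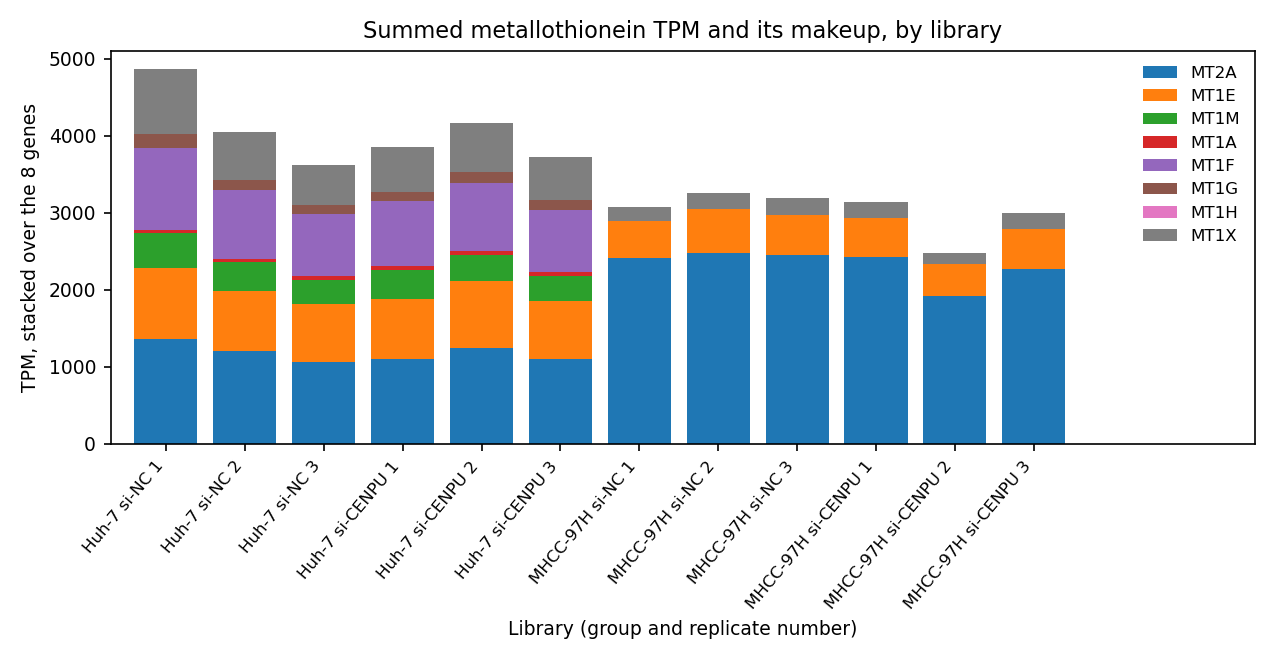
TPM of the 8 genes stacked for each library (vertical axis from 0, TPM; group and replicate number below). The Huh-7 columns, between 3627 and 4861 TPM, are built from 7 visible genes, and the MHCC-97H columns, between 2475 and 3258 TPM, from MT2A, MT1E and MT1X.

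Genes that sense and move zinc were read beside the family. MTF1, the zinc-sensing activator of metallothionein genes, was low in every library, at 0.13 to 0.45 TPM in Huh-7 and 0.37 to 0.62 TPM in MHCC-97H, and fell below the limit for testing. Of 14 zinc importers listed, 11 were tested, and with si-NC 7 were called higher and 2 lower in MHCC-97H (4 and 4 with trimmed-mean scaling). SLC39A4, the importer known for zinc uptake in the intestine, rose from 15.6 ± 1.16 to 248 ± 16.4 TPM (SD, n = 3 each). SLC39A13, which moves zinc out of the secretory pathway, rose from 15.4 ± 1.03 to 56.6 ± 1.69 TPM. SLC39A5 moved the other way, from 26.1 ± 4.76 TPM in Huh-7 with si-NC to a listing of 0 in the 3 MHCC-97H si-NC libraries. Of 10 exporters, 3 were tested, and SLC30A5, which fills secretory vesicles with zinc, was called higher (2.54 ± 1.29 against 6.21 ± 1.15 TPM). SLC30A1, the plasma membrane exporter that MTF1 also activates, had 0.930 ± 0.272 TPM in Huh-7 and 1.51 ± 0.475 TPM in MHCC-97H and was not called (limma adjusted p = 0.0681).

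A call between the lines was usual in these lists, as it was for 73.0% of all tested genes with si-NC: 81.8% of tested zinc importers, 33.3% of exporters, 100% of copper genes, 90.0% of iron genes, 71.4% of glutathione and thioredoxin genes and 88.9% of heat shock and metal stress genes were called. The share was 100% for glucocorticoid response genes, 81.8% for acute phase genes and 85.7% for neighbours of the cluster, all from few genes.

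Copper and iron genes gave mixed directions. Of 9 tested copper handling genes, 4 were called higher and 5 lower in MHCC-97H with si-NC (1 and 5 with trimmed-mean scaling). CCS, the copper chaperone of superoxide dismutase, fell from 150 ± 13.9 to 40.6 ± 3.66 TPM, and ATOX1, the chaperone that feeds the copper pumps, from 723 ± 51.1 to 367 ± 14.4 TPM (SD, n = 3 each). Of 10 tested iron genes, 6 were called higher and 3 lower. FTL, the ferritin light chain, fell from 31819 ± 998 to 8624 ± 698 TPM, while the transferrin receptor gene TFR2 rose from 2.65 ± 0.314 to 32.4 ± 2.65 TPM. FTH1, the ferritin heavy chain, named after its values were seen, went the other way from FTL, from 1669 ± 368 to 13008 ± 1968 TPM. HAMP, which encodes the liver hormone hepcidin, had 126 ± 15.3 TPM in Huh-7 and averaged 0.0767 TPM in MHCC-97H.

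Stress and hormone genes, which include pathways that act on metallothionein genes, were read in the same way. Of 9 heat shock and metal stress genes, 7 were called higher and 1 lower in MHCC-97H, the same counts as with trimmed-mean scaling. The gene called lower was HMOX1, a heme oxygenase that heavy metals induce, at 163 ± 18.4 TPM in Huh-7 and 22.2 ± 3.61 TPM in MHCC-97H (SD, n = 3 each). HSF1, the heat shock transcription factor, rose from 31.2 ± 1.90 to 69.5 ± 4.95 TPM. Of 14 glutathione and thioredoxin genes 7 were called higher and 3 lower (4 and 6 with trimmed-mean scaling): NQO1, a quinone reductase, rose from 21.9 ± 3.63 to 121 ± 6.89 TPM, and GPX2, a glutathione peroxidase, went from 313 ± 10.7 TPM to a listing of 0. Of 5 tested glucocorticoid response genes 3 were called higher and 2 lower (1 and 2 with trimmed-mean scaling), with DUSP1, a phosphatase, at 0.517 ± 0.336 and 18.1 ± 3.73 TPM. Of 11 tested interleukin-6 and acute phase genes 1 was called higher and 8 lower, and ORM1, a plasma protein of hepatocytes, went from 123 ± 18.9 TPM to a listing of 0 in MHCC-97H with si-NC. That list holds hepatocyte genes, and the hepatocyte markers were at or near 0 in MHCC-97H. ORM1, SAA4 and FGA of that list, like GPX2, HAMP and SLC39A5, passed the limit on low values only through Huh-7. GNAO1 and DUSP1 passed it only through MHCC-97H. The calls of these genes between the lines support nothing further, as for MT1F.

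After si-CENPU no member was called in either line. In Huh-7, 0 of 7 tested members were called by limma, where 0.00902% of all tested genes (1 of 11088) were called. In MHCC-97H, where MT1F, MT1M, MT1G and MT1A were at or near 0 in both groups and could show no fall, 0 of the 3 expressed members were called, also beside 0.00902%. At an unadjusted p below 0.05 the counts were 0 of 7 in Huh-7 and 0 of 3 in MHCC-97H, beside 507 genes (4.57%) in Huh-7 and 379 genes (3.42%) in MHCC-97H. For the difference between the responses of the lines, 0 of the 3 members expressed in both were called beside 0.00902% of all genes, with 0 of 3 at an unadjusted p below 0.05, beside 3.45% of all genes. Without Huh-7 si-NC replicate 1 the count over all genes in Huh-7 was 3, with 0 of 7 members. A p that misses the threshold does not show that the levels were equal, and the confidence intervals give the range that these samples allow.

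For the most abundant members those intervals were fairly narrow. MT2A went from 1212 ± 148 to 1154 ± 81.8 TPM in Huh-7, a log2 difference of -0.066 (95% confidence interval -0.30 to 0.16), and from 2450 ± 33.4 to 2209 ± 265 TPM in MHCC-97H, -0.16 (-0.39 to 0.074) (SD, n = 3 each). MT1E differed by -0.023 (-0.26 to 0.21) in Huh-7 and -0.13 (-0.37 to 0.10) in MHCC-97H. MT1X had the widest intervals of the 3, -0.15 (-0.55 to 0.24) and -0.18 (-0.57 to 0.22). Each of these intervals spans 0. In Huh-7 the values were -0.13 (-0.35 to 0.092) for MT1F, -0.13 (-0.39 to 0.14) for MT1M and -0.012 (-0.34 to 0.32) for MT1G.

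MT1A was the member whose siRNA groups in Huh-7 did not overlap. It went from 38.6 ± 3.47 to 46.2 ± 2.86 TPM (SD, n = 3 each), 19.6% higher, with a log2 difference of 0.25 (-0.073 to 0.58) that was not called (limma unadjusted p = 0.115, adjusted p = 1). Among all tested genes 7.65% did not overlap between the same groups, beside 1 of 7 members. The pseudogene MT1L, whose Huh-7 groups also did not overlap, had 65.8 ± 3.35 TPM after the control siRNA and 78.5 ± 4.99 TPM after si-CENPU and was not called either (limma unadjusted p = 0.0192, adjusted p = 0.999). The other 6 tested members had log2 differences below 0 in Huh-7, as did 46.6% of all genes. That direction rests on 1 library: without Huh-7 si-NC replicate 1 the differences became 0.022 for MT2A, 0.069 for MT1E, 0.028 for MT1X, 0.0048 for MT1M and 0.16 for MT1G, and MT1F stood at -0.018. MT1A stood at 0.21 without it. In MHCC-97H no member's siRNA groups were free of overlap, beside 6.95% of all genes without overlap. The 3 expressed members were all below 0 there, as were 62.8% of all genes, and without si-CENPU replicate 2 MT1X stood at 0.010. Without si-CENPU replicate 3 the values there were -0.18 for MT2A, -0.18 for MT1E and -0.27 for MT1X, and without si-NC replicate 1 they were -0.17, -0.19 and -0.24.

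**Figure D4:**
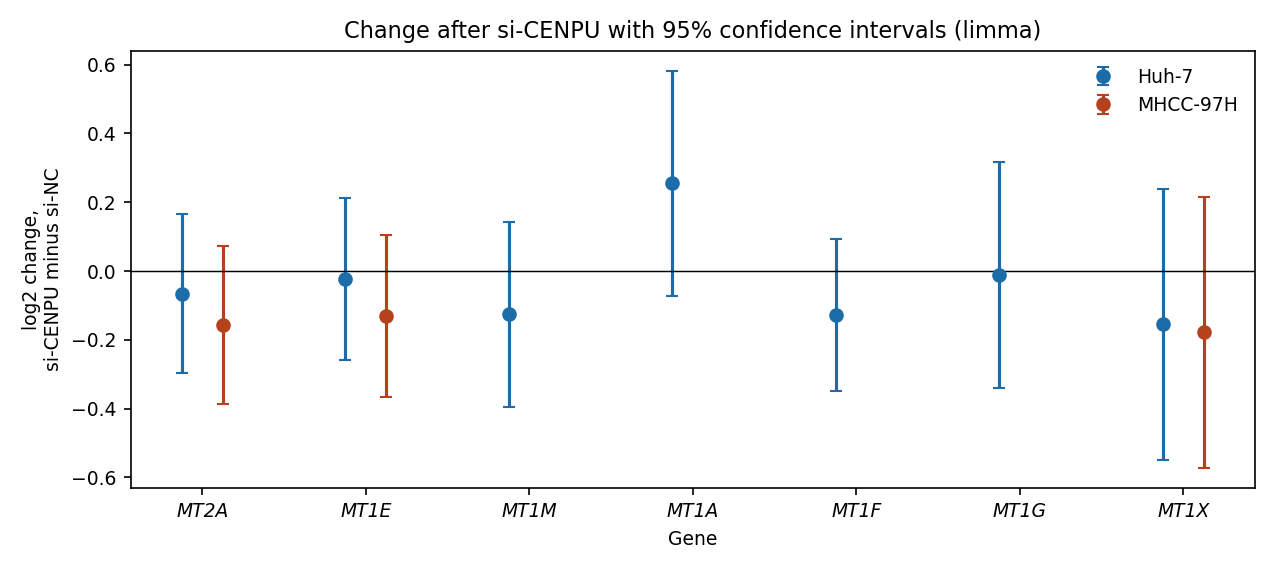
Difference in log2(TPM + 1) between si-CENPU and si-NC for the 7 tested members in Huh-7 and the 3 members expressed in MHCC-97H, with 95% confidence intervals from limma (n = 3 against 3). Every interval crosses 0, and MT1A in Huh-7 has the highest point at 0.25.

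No metal or stress gene list gave a called gene after si-CENPU in either line. This covers the lists of zinc exporters and importers, copper, iron, glutathione and thioredoxin, heat shock and metal stress, glucocorticoid response, interleukin-6 and acute phase genes and the neighbours of the cluster. At an unadjusted p below 0.05 in limma, 4 of the 79 list genes tested passed in Huh-7, beside 4.57% of all tested genes. They were SLC31A1, NQO1, HP and CETP, named after their values were seen. In MHCC-97H 0 of 79 passed, beside 3.42% of all tested genes. Leaving out each library in turn, a check added after the data were seen, gave 0 called list genes in MHCC-97H and, in Huh-7, 0 except without si-NC replicate 3, where CETP was called. SLC39A4, the importer with the smallest adjusted p between the lines, averaged 15.6 TPM (si-NC) and 13.5 TPM (si-CENPU) in Huh-7 and 248 and 224 TPM in MHCC-97H. HMOX1 averaged 163 and 154 TPM in Huh-7 and 22.2 and 19.8 TPM in MHCC-97H. CETP, whose libraries are given above, averaged 2.05 ± 3.55 and 8.13 ± 3.83 TPM in Huh-7 (log2 difference 2.17, limma unadjusted p = 0.0049, adjusted p = 0.828).

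In some libraries most or all expressed members of a line stood high or low together. In Huh-7, si-NC replicate 1 held the highest of the 6 values for 6 of the 7 tested members and the lowest for MT1A, although it held the highest value for only 9.65% of all genes compared. Its members lay 0.29 (median, log2 scale) above the mean of the line, where the median over all coding genes tested in Huh-7 was -0.21. In the same line si-NC replicate 3 held the lowest value for 5 of the 7 members, beside 6.31% of all genes. In MHCC-97H, si-CENPU replicate 2 held the lowest value for all 3 expressed members, beside 6.06% of 9852 genes, with a median deviation of -0.28 for the members and 0.080 for all coding genes. The members' signs were mixed in MHCC-97H si-NC replicate 1 (MT2A 0.057, MT1E -0.055, MT1X -0.025) and si-CENPU replicate 3 (-0.028, 0.032 and 0.096). Metallothionein transcripts are short, and length was therefore read beside these deviations: the 223 other coding genes of at least 100 TPM with transcripts under 1000 bases had medians of 0.057 in Huh-7 si-NC replicate 1 and -0.024 in MHCC-97H si-CENPU replicate 2. In these 2 libraries, picked for the members' extremes, the short genes had the same sign as the members and smaller deviations. The signs were opposite in Huh-7 si-NC replicate 2 (-0.057 for short genes, 0.021 for members), Huh-7 si-CENPU replicate 3 (0.0032 and -0.091) and MHCC-97H si-CENPU replicate 3 (-0.0096 and 0.032). In every other library the signs were the same, as in Huh-7 si-NC replicate 3 (-0.035 and -0.15) and Huh-7 si-CENPU replicate 2 (0.086 and 0.083). The part of length in the members' deviations was not tested.

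**Figure D5:**
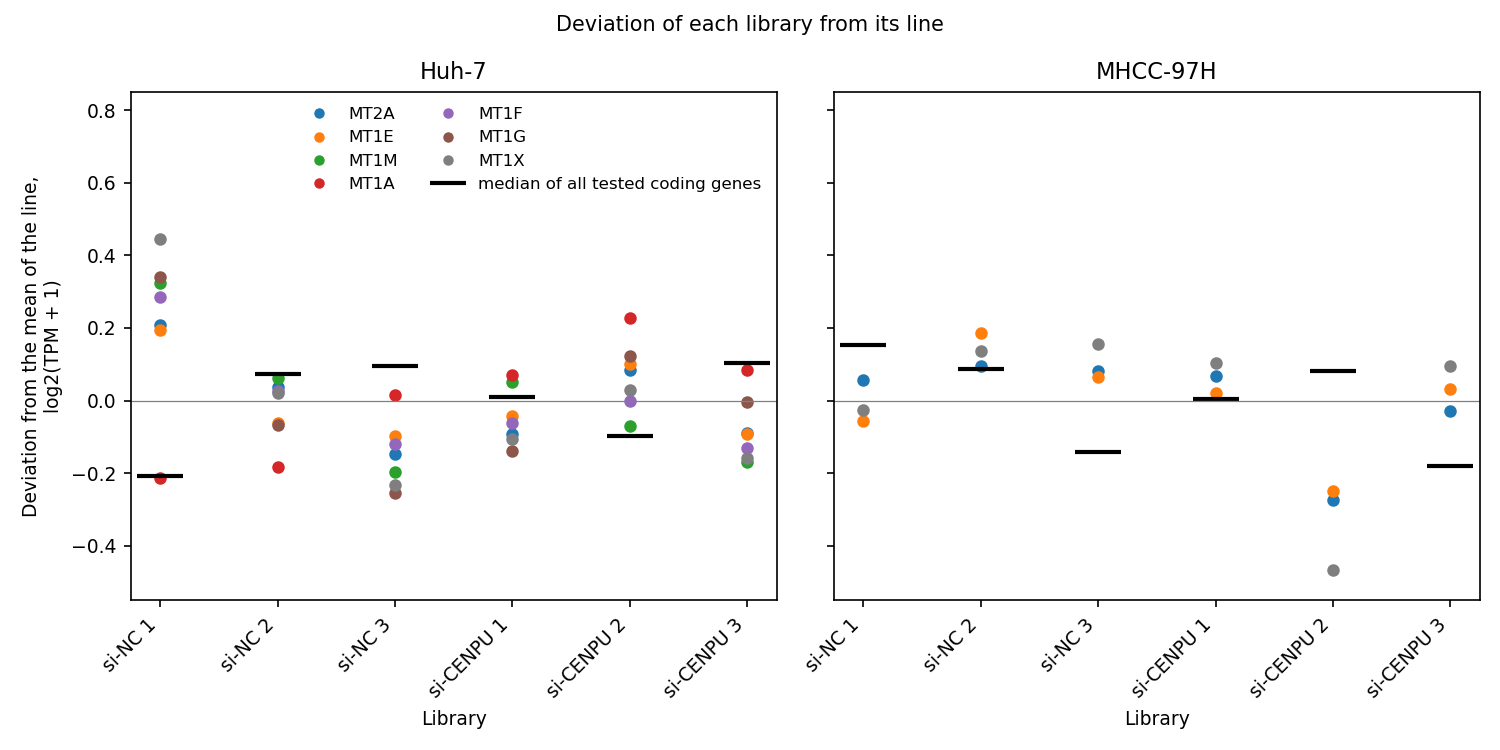
Deviation of each library from the mean of its line, in log2(TPM + 1), for the 7 tested members in Huh-7 and the 3 expressed members in MHCC-97H; black bars are medians over all coding genes tested in that line. In Huh-7 si-NC 1 all members but MT1A lie above 0 while the bar lies at -0.21, and in MHCC-97H si-CENPU 2 the 3 members lie below 0 while the bar lies at 0.080.

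How closely each member followed the family mean was described by Pearson's r over the 12 samples, after the mean of each line was removed. The r was taken between a gene and the mean of the 7 tested members. MT1X had r = 0.93, MT1E 0.87, MT1G 0.85, MT2A 0.84, MT1F 0.77 and MT1M 0.70, and MT1A had 0.093. MT1F and MT1M were at 0 in all 6 MHCC-97H libraries. MT1A (0.46 TPM) and MT1G (0.21 TPM) were above 0 there only in si-CENPU replicate 3. The r of MT1F, MT1M, MT1G and MT1A therefore mixes movement in Huh-7 with values at or near 0 in MHCC-97H. It cannot be ranked against that of MT2A, MT1E and MT1X, and r within Huh-7 alone was not taken. Each member is part of the mean it was compared with, and the points share libraries and their scaling, so these values are descriptions. Among the genes outside the family most like that mean were LEPROT (r = 0.90), an endosomal protein gene, ATP5ME (0.90) and NDUFA2 (0.90), subunits of mitochondrial ATP synthase and complex I, and LSM7 (0.90), an RNA-binding protein of the spliceosome. They were chosen from the highest values of all tested genes. ATP5ME, LSM7 and NDUFA2 have transcripts of 365, 575 and 804 bases, beside 396 to 829 bases for the metallothioneins, while that of LEPROT has 4625 bases.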

How the data were processed

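RNA of 12 samples was sequenced after a PureLink RNA kit and an Illumina TruSeq RNA kit, per the labels' protocols. The authors deposited 1 table of TPM per Ensembl gene. HISAT2, StringTie and the build GRCh38.p13 are named, without versions, per the submitters' processing notes. The annotation release, strand setting, treatment of reads shared by gene copies and filters were not given in the sources used here.

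Groups came from the sample titles. Symbols were matched for 60447 of 60664 identifiers. Gene coordinates and transcripts came from GENCODE release 29 and promoters from RefSeq, and the reference may differ from the authors' annotation. The 8 members and all gene lists were chosen with earlier results of these data known. Named genes were the 8 members, other family genes averaging 1 TPM in a group, MTF1, up to 3 called genes per list and comparison with the smallest adjusted p (or at least 1 gene), and the 5 genes most like the family. Some genes that this rule names are not reported here.

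Tests used log2(TPM + 1), which understates changes of low genes. Genes averaging at least 1 TPM over the 12 samples (11088) were fitted with limma 3.58.1 in R 4.3.3, with 1 mean per group, a variance trend and Benjamini-Hochberg adjustment over all genes. MT1H, under that limit, had exact permutation tests. TPM keeps no depth, so no count test or counting interval was possible. The model was tested on simulated data. Alternatives covered the pseudocount, the filter, the scaling, the variance model, the replicate number as a block, the compared groups alone and leaving out each library. Sequences were handled with Biopython 1.88 in Python 3.11.15.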

Additional observations from a re-analysis of the deposited data

How the results depend on the processing

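No alternative made a call of a member after si-CENPU or in the difference between the lines' responses, and the 7 members stayed called between the lines in all alternatives except trimmed-mean scaling, which lost MT2A and left 6. Signs of the small knockdown differences (log2) were not stable. Leaving out each library in turn moved them, in Huh-7, over -0.078 to 0.069 for MT1E, -0.14 to 0.16 for MT1G, -0.26 to 0.0048 for MT1M, -0.31 to 0.028 for MT1X and -0.16 to 0.022 for MT2A, and in MHCC-97H over -0.27 to 0.010 for MT1X. In Huh-7 the libraries whose omission turned a sign were si-NC replicate 1 (all 5 genes), si-CENPU replicate 1 (MT1G, 0.054) and si-CENPU replicate 3 (MT1E, 0.017), and in MHCC-97H si-CENPU replicate 2. The difference between the responses ranged over -0.21 to 0.17 for MT1X and -0.18 to 0.0078 for MT2A on leaving out libraries, and turned for MT1X with trimmed-mean scaling (0.076), quantile normalization (0.015) and rescaling without mitochondrial and the 100 most abundant genes (0.042), and for MT2A with trimmed-mean scaling (0.0083). The family's summed TPM moved with trimmed-mean scaling to 5206 and 4703 in Huh-7 (si-NC, si-CENPU) and to 2581 and 2460 in MHCC-97H, and with the rescaling to 3076 in MHCC-97H with si-NC. Without the filter on low values, MT1H was also called between the lines with si-NC, making 8. Over all genes, calls after si-CENPU in Huh-7 numbered 1, and 11 with a pseudocount of 0.1, 4 without a filter, 0 with a mean of at least 5 TPM, 2 with trimmed-mean scaling, 3 with quantile normalization and 0 in the groups alone. In MHCC-97H they numbered 1, and 0 with a pseudocount of 0.1, 7 without a filter, 4 with trimmed-mean scaling, 7 with quantile normalization, 0 without a variance trend and 0 in the groups alone. Leaving out 1 library of the line gave 0 to 4 in Huh-7 (0 without si-CENPU replicate 2, 4 without si-NC replicate 3 or si-CENPU replicate 3) and 0 to 4 in MHCC-97H (0 without si-NC replicate 3 or si-CENPU replicate 2, 4 without si-NC replicate 2). With the replicate block the calls were 0 in both lines, 8233 between the lines with si-NC and 7901 with si-CENPU, with 0 members called after si-CENPU. The replicate numbers are not known to pair the samples: the correlations of same-numbered samples' deviations were -0.0324, -0.0907 and 0.0284 in Huh-7 and -0.0326, -0.0914 and 0.134 in MHCC-97H. Depth is unknown, so how far a listing of 0 lies below detection cannot be given.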
